A study of Mus musculus with 2 samples.

Results

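Memory and effector CD4 T cells of the mouse spleen were taken as 192 of 25289 retained cells, 169 of 12679 in the WT library and 23 of 12610 in the CKO library. A cell qualified by its own UMIs (unique molecular identifiers, each standing for 1 captured transcript). It had at least 2 UMIs of Cd3d and Cd3e, at least 1 of Cd4, and none of Cd8a, Cd8b1, Foxp3, Cd79a, Klrb1c or Trdc, and this much is called the CD4 T gate. It also had UMIs in at least 2 of 6 genes, S100a4, S100a6, Itgb1, Maf, Cxcr3 and Icos, and such cells are called memory-gated below. The cells were thus chosen by their UMIs of the gate genes, whose levels are given as a description only.

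CD4 T cells leave the naive state when they meet antigen, lose the lymph node homing receptor Ccr7, gain the adhesion receptor Cd44, and take up a helper programme. T helper 1 cells use Tbx21 and make interferon gamma, T follicular helper cells carry Cxcr5 and Pdcd1 and help B cells, and regulatory-type cells carry Ikzf2, Ctla4 and Il2ra. Among the 6 gate genes, S100a4 and S100a6 encode calcium-binding proteins, Itgb1 the beta-1 integrin subunit, Maf a transcription factor of follicular and cytokine programmes, Cxcr3 the receptor for interferon-induced chemokines, and Icos a costimulatory receptor. In the GRCm38 annotation S100a4 lies on chromosome 3 from 90603771 to 90606045 and S100a6 on the same chromosome from 90612882 to 90624181. Itgb1 (128685654 to 128733200) and Maf (115682942 to 115707794) lie on chromosome 8, Cxcr3 on chromosome X from 101731535 to 101734269, and Icos on chromosome 1 from 60977927 to 61000320.

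The cells came from the spleens of C57BL/6 mice and from 2 droplet libraries of 10x Genomics 3′ chemistry, 1 of genotype WT and 1 of genotype RPA1 conditional knockout (CKO), a design aimed at what RPA1 does in T cells. RPA1 binds DNA within the 3-subunit RPA complex that covers single strands during replication and repair. No Cre driver, deleted exons, age or treatment is given in the sources used here. With 1 library per genotype no spread between replicates exists and no test was made, and every interval covers counting error only.

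The retained cells had a median of 5520 UMIs (WT) and 4690 UMIs (CKO), and memory-gated cells a median of 6820 and 12419. The libraries shared 36 barcodes, none of them of a memory-gated cell. Xist had 0 UMIs in the memory-gated cells of both libraries while Ddx3y had 106 (WT) and 19 (CKO). Rpa1 itself stood at 48.3 CPM (UMIs of the gene per 1000000 UMIs, after adding up the cells of a set) from 69 UMIs in WT memory-gated cells and at 33.3 CPM from 9 UMIs in CKO cells. A 3′ tag need not lie in the deleted part, so these levels check nothing about the deletion.

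Few WT memory-gated cells carried myeloid markers, but just over 50% of the CKO cells did, and for these the data went against the label. Lack of such markers does not by itself show that a cell was a memory or effector cell. UMIs of 30 marker genes of monocytes, macrophages, dendritic cells and neutrophils were summed in each cell. In the CKO library 12 of 23 memory-gated cells (52.2%, exact 95% interval 30.6 to 73.2%) carried 21 to 6026 such UMIs, and the other 11 carried 0 to 4. In the WT library 6 of 169 (3.55%, 1.31 to 7.57%) carried 22 to 490, and the other 163 carried 0 to 7. No cell of either library lay between 7 and 21. Lyz2, the lysozyme of phagocytes, gave 1408 UMIs in the 12 CKO cells and 0 in the other 11. One of the 12 had no Lyz2 UMI but 1218 UMIs of erythroid markers, and another held 5641 UMIs of neutrophil markers. A B cell marker list gave 388 to 537 UMIs in 3 of them, though by the gate they had no Cd79a UMI. This list includes the antigen-presentation genes Cd74, H2-Aa, H2-Ab1 and H2-Eb1. UMIs of B cells and of other antigen-presenting cells were thus not told apart. None of the 11 cells without myeloid markers had more than 13 UMIs of the B cell list or any erythroid UMI.

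The cells with myeloid markers were also the deep ones, with medians of 14723 UMIs (CKO) and 13496 UMIs (WT) against 6254 and 6764 in the rest. Scrublet, which scores likeness to simulated pairs of cells, marked 9 of the 12 CKO cells and 3 of the 6 WT cells. All 12 CKO cells had an Itgb1 UMI, 10 an S100a6 UMI and 9 an S100a4 UMI, while only 1 had Maf, 1 Cxcr3 and 2 Icos. In cells gated as myeloid, S100a4 was seen in 66.8% of WT and 71.6% of CKO cells, S100a6 in 86.1% and 84.3%, and Itgb1 in 76.5% and 78.9%, and 81.4% and 81.9% had UMIs in at least 2 of the 6 genes. Whether the 12 cells were pairs of cells was not tested. They are called cells with myeloid markers. The main shares and gene comparisons are given with and without them, and several further results only without them.

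**Figure D1:**
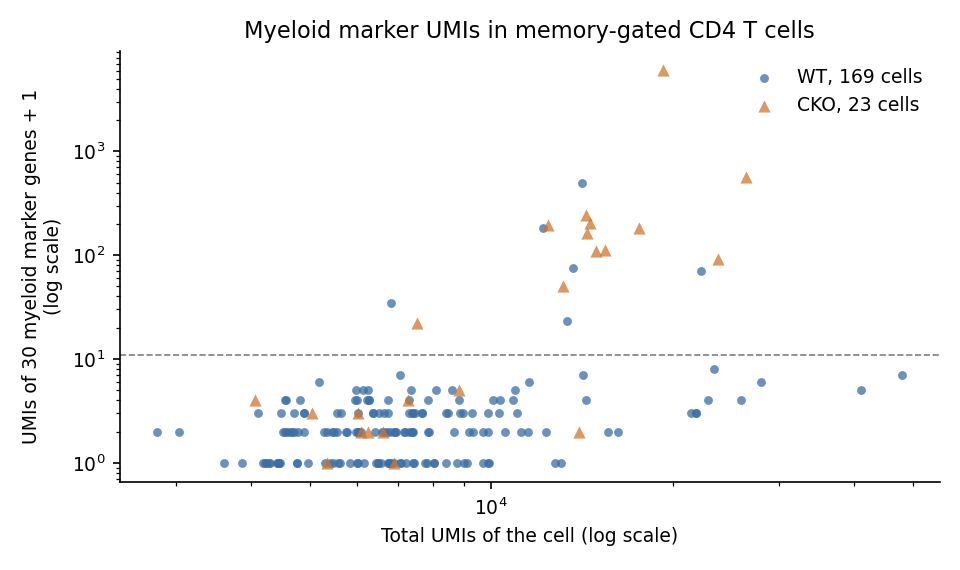
Total UMIs of each memory-gated cell (x axis, log scale) against its UMIs of 30 myeloid marker genes plus 1 (y axis, log scale), with WT cells as circles and CKO cells as triangles. The dashed line marks 10 UMIs. Of the cells above it 12 are CKO and 6 are WT, and all cells below it have 7 or fewer.

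Memory-gated cells were scarcer in the CKO spleen library than in the WT library, and by a larger factor than CD4 T cells as a whole. They made up 1.33% (1.14 to 1.55%) of retained WT cells and 0.182% (0.116 to 0.274%) of retained CKO cells, a CKO over WT ratio of 0.137 (0.0844 to 0.212), or 7.31-fold lower. Without the cells with myeloid markers the counts were 163 and 11, the shares 1.29% and 0.0872%, and the ratio 0.0679 (0.0332 to 0.125), or 14.7-fold lower. The CD4 T gate as a whole held 1114 WT cells (8.79%) and 259 CKO cells (2.05%), a ratio of 0.234. Fewer cells of a kind and fewer of them passing a gate on UMIs cannot be told apart from these shares.

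Within the CD4 T gate, 15.2% (13.1 to 17.4%) of WT and 8.88% (5.71 to 13.0%) of CKO cells were memory-gated, a ratio of 0.585 (0.361 to 0.908). With the cells with myeloid markers left out of both numbers the shares were 14.8% and 4.45%, and the ratio was 0.302 (0.148 to 0.554). CKO cells in the CD4 T gate were a little shallower than WT cells, with medians of 5891 and 6534 UMIs once those cells were left out. With every cell thinned at random to 2000 UMIs, which left out 1 WT and 1 CKO cell, the shares were 7.91% and 3.49% with all cells (ratio 0.441, 0.195 to 0.876) and 7.53% and 1.63% without those with myeloid markers (ratio 0.216, 0.0575 to 0.574). Over 20 draws the ratio without them ran from 0.0954 to 0.296 with a median of 0.207, so the CKO share was the lower one in each draw. Among B cells, 3.06% (WT) and 3.94% (CKO) had at least 2 of the 6 genes. Their median depths were 4665 and 4457 UMIs. The interval of the CKO memory-gated share of 4.45% (2.24 to 7.83%) includes the B cell share. Single B cells held up to 83 (WT) and 109 (CKO) UMIs of S100a6, so the B cell share is not a background level alone. Part of that B cell share was Itgb1, seen in 13.5% and 14.4% of B cells, while Icos was seen in 0.180% and 0.121%.

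The share of cells was then read at each number of gate genes. With the cells with myeloid markers left out, exactly 1 gene was seen in 23.7% of WT (262 cells) and 28.3% of CKO cells (70 cells). Exactly 2 were seen in 64 WT cells (5.80%) and 9 CKO cells (3.64%), a ratio of 0.628 whose interval (0.275 to 1.27) includes 1. Of cells with 3, 4, 5 and 6 genes the WT library held 36, 37, 19 and 7, and the CKO library held 0, 1, 0 and 1. For a count of 0 of 247 CKO cells the limit at 3 counts is a share of up to 1.21%, and the exact 95% upper bound is 1.48%. The WT share at 3 genes, 3.26% (2.29 to 4.49%), lay above both, while the interval of the WT share at 5 genes, 1.72% (1.04 to 2.68%), includes them. Itgb1 with Icos alone was the commonest pattern in both, in 26 of 163 WT and 4 of 11 CKO cells.

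**Figure D2:**
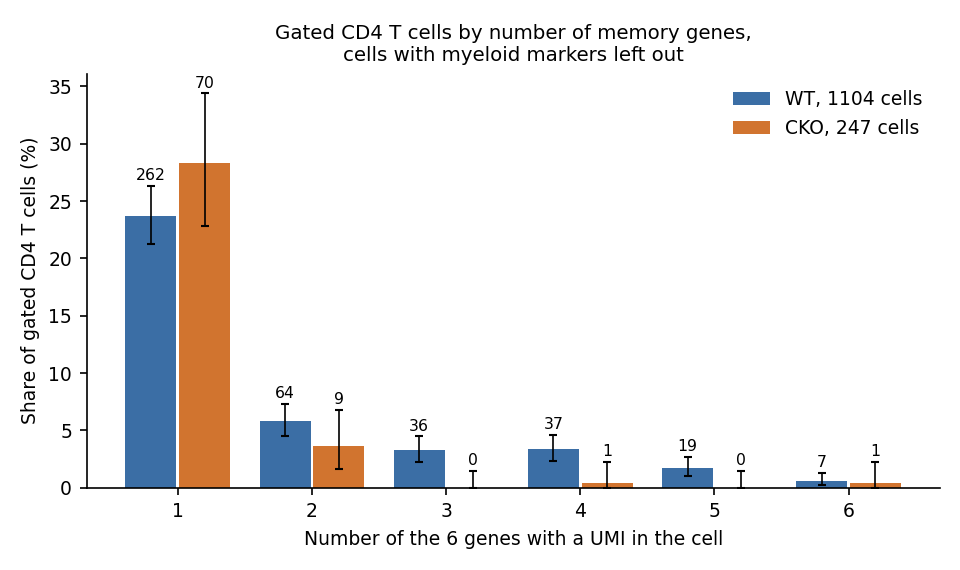
Share of CD4 T gate cells (y axis, percent) by the number of the 6 genes with a UMI (x axis), cells with myeloid markers left out. Bars give WT (1104 cells) and CKO (247 cells), whiskers exact 95% intervals of the counting error, and numbers over the whiskers count the cells. The intervals do not overlap at 3 and 4 genes and overlap at 1, 2, 5 and 6 genes.

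Gene by gene, the CKO share was lowest against WT for Cxcr3 and nearest to it for Itgb1. Cxcr3 was seen in 6.52% of WT and 0.810% of CKO cells in the CD4 T gate without myeloid markers, a ratio of 0.124. Maf was seen in 9.06% and 2.43% (0.268) and S100a6 in 8.42% and 2.83% (0.336). S100a4 was seen in 5.34% and 2.83% (0.530), Icos in 17.3% and 11.7% (0.679) and Itgb1 in 24.3% and 19.03% (0.784). The Cxcr3 share in CKO was 2 cells, and in B cells it was 0.637% (WT) and 0.253% (CKO). For Maf and S100a6 the CKO shares lay below those of CKO B cells, 3.24% and 7.501%, so no level of expression is read from them.

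In Cd44 and Lef1, WT cells just inside the threshold lay between those just outside it and those with more genes. Cells with exactly 1 gene and with exactly 2 genes had medians of 6786 and 6822 UMIs. Cd44 stood at 10.9 and 50.5 CPM in them and Ccr7 at 236 and 160 CPM. Ikzf2 stood at 49.4 and 75.7 CPM, and Lgals1, a galectin of activated T cells, at 116 and 118 CPM. Lef1, a transcription factor of the naive state, stood at 746, 544, 197 and 149 CPM with 1, 2, 3 and at least 4 genes. Of 5370 genes, 145 (2.7%) were past 2-fold higher and 68 (1.27%) lower with exactly 2 genes than with 1. In CKO cells with 1 and 2 genes Lef1 stood at 569 and 541 CPM.

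Cycling cells formed a small separate group among the memory-gated cells. A cell was called cycling when at least 10 of 22 cycling genes had a UMI, and without myeloid markers 9 of 163 WT cells and 1 of 11 CKO cells met this. The 9 WT cells had 17 to 22 of these genes and the next cell had 8. They were deep, with 14166 to 48050 UMIs. Among CD4 T gate cells with none of the 6 genes 1 of 679 WT and 0 of 166 CKO cells were cycling. Cells with neither myeloid markers nor the cycling pattern, 154 WT and 10 CKO, are called resting below. They were 13.9% of the WT and 4.05% of the CKO CD4 T gate, a ratio of 0.290 (0.137 to 0.548).

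Resting memory-gated cells of the WT library differed from CD4 T gate cells with none of the 6 genes in genes the gate did not read. Of 5384 genes with a mean of at least 20 CPM, 234 (4.35%) were past 2-fold higher and 40 (0.743%) past 2-fold lower, against 20 and 0 of the 25 measured genes of a memory and activation list. The list's median log2 ratio was 2.61 and that of all measured genes 0.15. The level filter took the mean of both sets. A gene near 0 in cells with none of the 6 thus passed it only by its level in memory-gated cells, and was then past 2-fold higher. The counts of higher genes were in part fixed by this filter and are a description only. The cells of both sets came from 1 library, so these values describe that library. The resting memory-gated cells had medians of 6686 UMIs and 2280 genes, and the cells with none of the 6 medians of 6432 UMIs and 2013 genes.

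Effector molecules were among the genes ranked highest by this ratio. Ccl5, a chemokine of effector cells, stood at 596 CPM (551 to 643) in resting memory-gated cells and 4.32 CPM in cells with none of the 6 genes, and 36 of 154 cells had a UMI. Its share in B cells was 5.16%. Nkg7, a cytotoxic granule protein, stood at 228 and 2.50 CPM. Cxcr6, a homing receptor of effector cells, gave 89 UMIs from 25 cells and 0 in the other set, at least 118-fold higher against a floor of 3 counts over that set. Ifng, interferon gamma itself, stood at 46.2 and 0.455 CPM and was seen in 27 of 154 cells against 0.873% of B cells. Ccr2, a receptor for inflammatory chemokines, stood at 45.3 and 0.455 CPM.

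Cd44 and some other genes outside the gate were also higher, but the cytokine receptor and survival list as a whole was not. Its 19 measured genes had a median log2 ratio of -0.16. Cd44 stood at 81.6 CPM (65.6 to 100) against 8.18 CPM, and 57 of 154 cells had a UMI. Il2rb, the shared receptor chain for interleukins 2 and 15, was 14.7-fold higher with UMIs in 70 cells, and Id2, an inhibitor of E proteins, 6.61-fold with UMIs in 81. Ahnak, a large scaffold protein, was 20.7-fold higher and Anxa2, an annexin, 80.8-fold.

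Naive genes stood lower, but were not lost. Of 17 measured genes of a naive and quiescence list 8 were past 2-fold lower and none higher, with a median log2 ratio of -0.91. Ccr7 stood at 110 CPM (91.0 to 131) in resting memory-gated cells and 259 CPM in cells with none of the 6, with 51 of 154 cells showing it. Igfbp4 stood at 86.1 and 451 CPM and Lef1 at 332 and 786 CPM. Tcf7, the partner factor of Lef1, stood at 456 and 534 CPM. Bcl2, which opposes apoptosis, stood at 107 and 266 CPM.

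The same genes were then read in the 10 resting CKO cells. Of the 12 genes ranked highest in resting WT cells, 9 were higher in CKO resting cells than in CKO cells with none of the 6 genes, and Chst2, Asb2 and Ttc39c had 0 UMIs in both. Of the 12 ranked lowest, 11 were lower there too, Atp1b1 being the exception, but for 3 of them only did the interval of the ratio stay below 1. Among the 11, Myo10, Ggt5 and Nacc2 had 0 UMIs in the resting CKO cells. In CKO cells with none of the 6 they stood at 10.3, 19.6 and 7.2 CPM. These levels lie below the 48.1 CPM that 3 counts stand for over the 10 cells, so each 0 shows no direction. In this CKO comparison 19.8% of measured genes were past 2-fold higher and 9.27% lower, so single genes past that size say little about 10 cells. Ccr7 stood at 112 CPM in resting CKO memory-gated cells and 250.1 CPM in CKO cells with none of the 6, and Lef1 at 529 and 656 CPM.

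**Figure D3:**
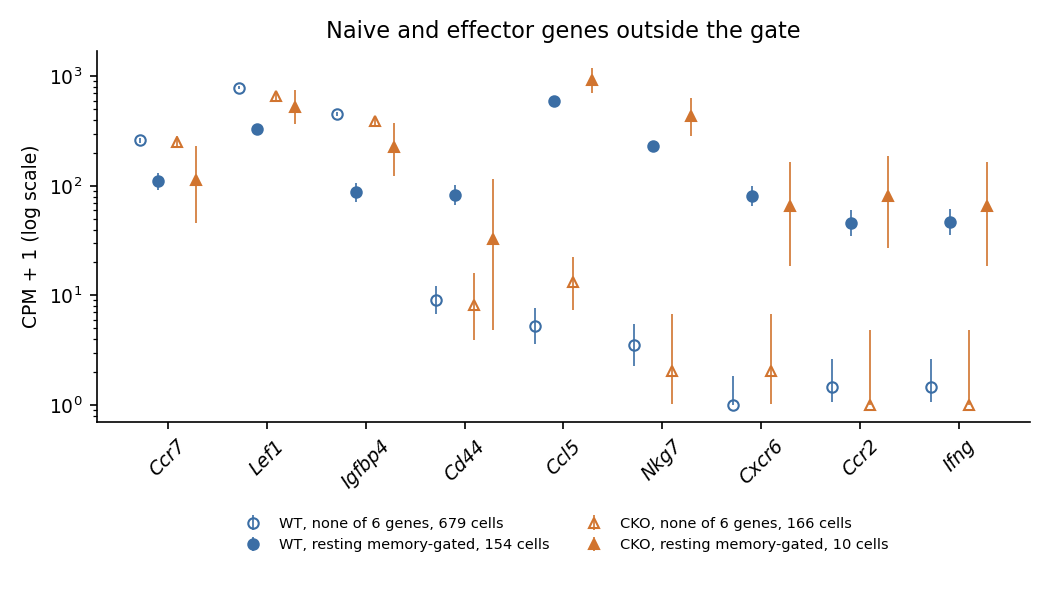
Level of 3 naive genes and 6 effector or activation genes (y axis, CPM plus 1, log scale) in CD4 T gate cells with none of the 6 gate genes (open symbols) and in resting memory-gated cells (filled symbols), WT as circles and CKO as triangles. Whiskers are exact Poisson 95% intervals. Lef1 stands at 332 CPM in WT and 529 CPM in CKO resting memory-gated cells.

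With all 169 WT cells in place of the resting ones, the 12 genes ranked highest over cells with none of the 6 were 8 of the cell cycle (Pclaf, Birc5, Kif15 and 5 histone genes), 3 of effector cells (Ccl5, Cxcr6 and Anxa2) and Lyz2. The histone gene Hist1h1b stood at 650 CPM in all memory-gated WT cells and 2.73 CPM in cells with none of the 6. Lyz2 stood at 387 CPM with the cells with myeloid markers and at 8.92 CPM without them. In this fuller set 340 genes (6.24%) were past 2-fold higher and 45 (0.826%) lower of 5445. Without the cells with myeloid markers these counts were 329 (6.07%) and 46 (0.849%) of 5418. Within the CKO library 785 genes (13.8%) were higher and 261 (4.58%) lower with all 23 cells, and 1085 (19.5%) and 485 (8.7%) with the 11. Of the 12 lowest WT genes, Igfbp4 had a ratio of 0.180, Pdlim4 0.205, Ly6c1 0.251, Bcl2 0.345 and Lef1 0.386.

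The effector content of the 11 CKO cells without myeloid markers lay in 2 of them. A cell with all 6 gate genes had 5 UMIs of Ccl5, 10 of Nkg7, 3 of Cxcr6, 5 of Ccr2 and 2 of Ifng, and no UMI of Ccr7. A cell with S100a4 and Cxcr3 had 52 of the 58 Ccl5 UMIs, with 16 of Nkg7, 1 of Cxcr6 and 2 of Ifng, and likewise none of Ccr7. A cell with 4 gate genes had 42 UMIs of S100a6, 25 of Itgb1 and 21 of S100a4 but 0 of Ccl5, Nkg7 and Ifng. Among the 8 that remained, all had Lef1 UMIs, from 1 to 7, and the most Ccl5 in any of them was 1 UMI. The high summed level of Ccl5 in the 10 resting CKO cells, 929 CPM against 596 CPM in WT, was thus mostly that of 1 cell.

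Helper programmes were mixed in the WT cells. Sets of 3 genes each, chosen after their values were seen, placed 51 of 163 cells without myeloid markers (31.3%) as having a UMI of Tbx21, Ifng or Il12rb2, 49 (30.1%) of Cxcr5, Pdcd1 or Il21, and 80 (49.1%) of Ikzf2, Ctla4 or Il2ra. No UMI of any of these was seen in 50 cells, and 11 had at least 1 of each set. Of the CKO cells 2 of 11 had a UMI of the first set, 1 of the second and 3 of the third, and 6 had none. Among CD4 T gate cells with none of the 6 genes the third set was seen in 32 of 679 WT cells (4.71%) and 18 of 166 CKO cells (10.8%).

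T helper 17 and T helper 2 cytokines were rare. Il17a had 0 UMIs in resting cells of both libraries. Il4, the T helper 2 cytokine, gave 11 UMIs from 6 resting WT cells. Zbtb16, the factor of NKT cells, gave 17 UMIs from 8 of 154 resting WT cells and none in the 10 CKO cells. The NKT marker list, which also holds Cxcr6 and Il2rb of effector T cells, summed to 286 CPM in resting WT memory-gated cells and 12.05 CPM in WT cells with none of the 6 genes, and 10 of the 154 cells held at least 10 of its UMIs, at most 29. The gamma-delta receptor genes Tcrg-C1, Tcrg-C4 and Trgv2 gave 12, 8 and 6 UMIs in resting WT cells and 0 in WT cells with none of the 6, and 1 cell held 15 of the 39 UMIs of the gamma-delta marker list. The NK marker list reached 43 UMIs in 1 resting WT cell, and 2 cells held at least 10. The part of these cells in the effector gene levels was not tested. For 0 of 10 cells the limit is a share of up to 30%, which leaves all of these rare types out of reach in the CKO library.

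The 154 resting WT cells were also split by single gate genes. Cells with a Cxcr3 UMI (63) and without one (91) were compared on genes outside the gate. Ccl5 stood at 1105 CPM with Cxcr3 and 230 CPM without, Ifng at 80.3 and 21.8 CPM, Tbx21 at 45.6 and 10.9 CPM, and Ly6c2, a surface protein of effector cells, at 226 and 34.2 CPM. Ccr7 stood at 34.7 and 163 CPM. Ly6c2 gave 104 UMIs from 11 cells with Cxcr3 and 22 UMIs from 11 cells without. Over all resting WT cells, 78 of its UMIs came from 4 cells that held S100a4, so its level was that of few cells. Several genes were unequal in the same direction in more than 1 split, and the difference between splits was not tested. Pdcd1 was 2.51-fold higher with Cxcr3, 2.60-fold with Maf and 2.39-fold with S100a4, and Ikzf2 1.499-fold, 2.09-fold and 2.23-fold.

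Cells with a Maf UMI (84 against 70) had Ctla4 at 66.3 and 11.3 CPM, Rora, an orphan nuclear receptor, at 106 and 30.2 CPM, Pdcd1 at 54.1 and 20.8 CPM, Ikzf2 at 304 and 145 CPM, and Ccl5 at 839 and 332 CPM. Ccr7 stood at 61.0 CPM with Maf and 162 CPM without. Ly6c2 was lower with Maf, at 64.5 CPM against 168 CPM without, opposite to its Cxcr3 split. Cells with an S100a4 UMI (49 against 105) had Lgals1 at 920 and 232 CPM, Ifng at 75.6 and 31.4 CPM, and Ccr7 at 72.9 and 128 CPM. Ccl5 went the other way, at 343 CPM with S100a4 and 723 CPM without (ratio 0.474, 0.387 to 0.576). Cells with an Icos UMI (91 against 63) had Ccr7 at 122 CPM with Icos and 90.4 CPM without, a ratio of 1.35 whose interval included 1. Ccl5 was lower with Icos, at 473 CPM against 786 CPM without. A cell needs 2 genes to enter, so these splits are not independent of one another: a cell without Icos had to hold 2 of the others.

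Summed over all memory-gated cells, the CKO over WT comparison was led by the cells with myeloid markers. In the CKO library these were 12 of 23 cells and held 193789 of the 270188 UMIs. Of 5894 genes with a mean of at least 20 CPM, 596 (10.1%) were past 2-fold higher and 339 (5.75%) past 2-fold lower in CKO. Among 670 genes with a mean of at least 200 CPM these were 41 (6.12%) and 11 (1.64%). The 12 highest were 4 haemoglobin genes (Hbb-bs, Hbb-bt, Hba-a1 and Hba-a2), the neutrophil genes Ngp, S100a8, S100a9, Camp, Lcn2, Ltf and Wfdc21, and Ace, a peptidase of monocytes. For each of the first 11 genes 1 cell gave at least 99.6% of the CKO UMIs. The 12 lowest were Ly6a, Eea1, Serpinb6b, Tbc1d4, Tnfrsf4, Ikzf2, Ctla2a, Rilpl2, Tnfsf11, Izumo1r, Id2 and Ttc39b. Ly6a, a surface protein of activated T cells, stood at 66.6 CPM in CKO and 436 CPM in WT, a ratio of 0.153 (0.0900 to 0.244).

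Without the cells with myeloid markers 873 (15.1%) were past 2-fold higher and 648 (11.2%) lower of 5772, and 11 (1.64%) and 13 (1.94%) of 670 at 200 CPM. Of the higher genes Cdkn1a ranked first and Phlda3 the fourth, after Irak1bp1 and Tmem35a, with all UMIs of Cdkn1a and Phlda3 from the cycling cell. In resting cells, 895 of 5557 genes (16.1%) were past 2-fold higher and 659 (11.9%) lower, from 62403 CKO UMIs in all. Among 658 genes with a mean of at least 200 CPM, 12 (1.82%) were higher and 10 (1.52%) lower. Ly6a stood at 160 CPM (76.9 to 295) in CKO and 493 CPM (453 to 536) in WT, a ratio of 0.325 (0.155 to 0.602), with UMIs in 2 of 10 CKO cells and 110 of 154 WT cells. Srgn, a granule proteoglycan, stood at 305 and 803 CPM (ratio 0.379), Ly6e at 401 and 960 CPM (0.417) and Jund, an AP-1 factor, at 192 and 487 CPM (0.395). Lyst, which sorts lysosomal granules, and Eea1, an endosome protein, had 0 CKO UMIs against 144 and 137 in WT, at least 2.71-fold and 2.58-fold lower against a floor of 3 counts over the 10 cells. In cells with none of the 6 genes 26 of 5208 genes (0.499%) were higher and 17 (0.326%) lower in CKO. The ratio there was 0.856 for Ly6a, 0.860 for Srgn, 1.07 for Ly6e and 1.33 for Jund. Ly6a stood at 142 CPM (CKO) and 165.5 CPM (WT) in these cells. Without myeloid markers 9 of 11 CKO and 64 of 163 WT memory-gated cells had exactly 2 gate genes. Resting cells were not matched on this number, and its part in their ratios was not tested.

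The genes highest in resting CKO cells rested on few UMIs. Fdps, an enzyme of sterol synthesis, gave 14 UMIs from 6 of 10 cells, 7 of them from 1 cell, a level of 224 CPM against 26.3 CPM in WT. Aqp3, a water and glycerol channel, gave 7 UMIs, all from 1 cell, and Trpm1 5 UMIs, also from 1 cell. The other 9 of the 12 highest gave 2 to 6 UMIs each.

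Regulatory-type genes other than Foxp3 had the lowest median of the 20 function lists in resting cells. Of 8 measured in resting cells 7 were past 2-fold lower and 0 higher, against 16.1% higher and 11.9% lower among all measured genes. Of those 7, Nrp1 and Il2ra had 0 CKO UMIs, and the floor of 3 counts (48.1 CPM) does not place either of them past 2-fold. The list's median log2 ratio was -1.98, or -1.33 with the 2 genes at 0 set to the floor, against 0.12 for all measured genes. The summed level was 353 CPM in CKO and 1036 CPM in WT, a ratio of 0.340 (0.212 to 0.518), from 22 CKO UMIs. Izumo1r, the folate receptor 4 of regulatory and follicular cells, stood at 96.2 CPM in CKO and 342 CPM in WT (ratio 0.281, 0.103 to 0.618). Nrp1, a coreceptor of thymic regulatory cells, gave 0 and 88 UMIs, at least 1.66-fold lower. Ikzf2, the factor Helios, stood at 112 and 228 CPM with a ratio of 0.493 whose interval (0.196 to 1.03) reached 1. Its WT level differed with the number of gate genes, at 75.7 CPM with exactly 2, 228 CPM with 3 and 290.2 CPM with at least 4. Of the 11 CKO cells without myeloid markers 9 had exactly 2 genes, and in these Ikzf2 stood at 95.4 CPM (35.0 to 208).

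In cells with none of the 6 genes Ikzf2 went the other way, with 84.7 CPM in CKO and 16.1 CPM in WT. There its UMIs came from 17 of 166 CKO cells and 26 of 679 WT cells, and the list summed to a ratio of 1.52. So Ikzf2 was 14.1-fold higher in resting memory-gated than in none-of-6 cells of the WT library and 1.32-fold higher in the CKO library. Izumo1r was lower in CKO in none-of-6 cells too, at 62.0 CPM against 90 CPM in WT (ratio 0.689, 0.516 to 0.906). Foxp3 was 0 in all of these cells by the gate, and a cell with Foxp3 transcripts but no captured UMI passes it.

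Naive genes summed higher in resting CKO cells, 5352 CPM against 3405 CPM in WT, a ratio of 1.57 (1.40 to 1.76). Of 16 measured, 4 were past 2-fold higher and 1 lower, against 16.1% and 11.9% of all measured genes. Igfbp4 stood at 224 CPM in CKO and 86.1 CPM in WT (ratio 2.61, 1.37 to 4.59), and Bach2, a repressor of effector genes, at 160 and 50.8 CPM. Il7r, the survival receptor of resting T cells, stood at 673 and 337 CPM, a log2 ratio of 0.99. With all 23 and 169 cells the naive list's ratio was 1.08 (1.01 to 1.16), and without myeloid markers 1.43 (1.28 to 1.60). Of the cells without myeloid markers 9 of 11 CKO cells had exactly 2 of the 6 genes, against 64 of 163 WT cells. At exactly 2 genes Lef1 stood at 541 CPM in CKO and 544 CPM in WT, and Ccr7 at 127 and 160 CPM.

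Other helper lists moved with which cells were kept. T follicular helper genes summed to a ratio of 0.402 (0.338 to 0.476) in all memory-gated cells and 0.705 (0.542 to 0.901) in resting cells, where 1 of 11 measured genes was past 2-fold higher and 4 lower, against 16.1% and 11.9% of all measured genes. Cytotoxicity genes summed to 0.437 in all cells and 1.49 in resting cells, where Ccl5 of the 1 cell above counted. T helper 1 genes summed to 0.727 and 1.24. Tbx21, the T helper 1 factor, gave 28 UMIs from 22 of 154 resting WT cells and 0 in the 10 CKO cells, and Cxcr5 gave 33 UMIs from 23 WT cells and 0. At the CKO depth neither 0 shows a difference, since 3 counts over those cells stand for 48.1 CPM and the WT levels were 25.4 and 29.9 CPM.

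Memory and activation genes outside the gate summed to 1.06 (1.01 to 1.12) in all cells and 1.21 (1.11 to 1.33) in resting cells. Of 26 measured in resting cells 3 were past 2-fold higher and 9 lower, against 16.1% and 11.9% of all measured genes, with a median log2 ratio of -0.13, so sum and median differed in sign. The sum was led by Crip1, a zinc-binding LIM protein, at 1891 CPM in CKO and 649 CPM in WT, for which 65 CKO UMIs came from 1 cell. Cd44 stood at 32.1 CPM (3.88 to 116) from 2 UMIs in CKO and 81.6 CPM in WT. Proximal T cell receptor signalling genes, which carry the signal from the receptor, summed to 0.646 (0.613 to 0.680) with all cells and 1.11 (1.03 to 1.20) in resting cells, where the list's median log2 ratio was -0.11, of the opposite sign.

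**Figure D4:**
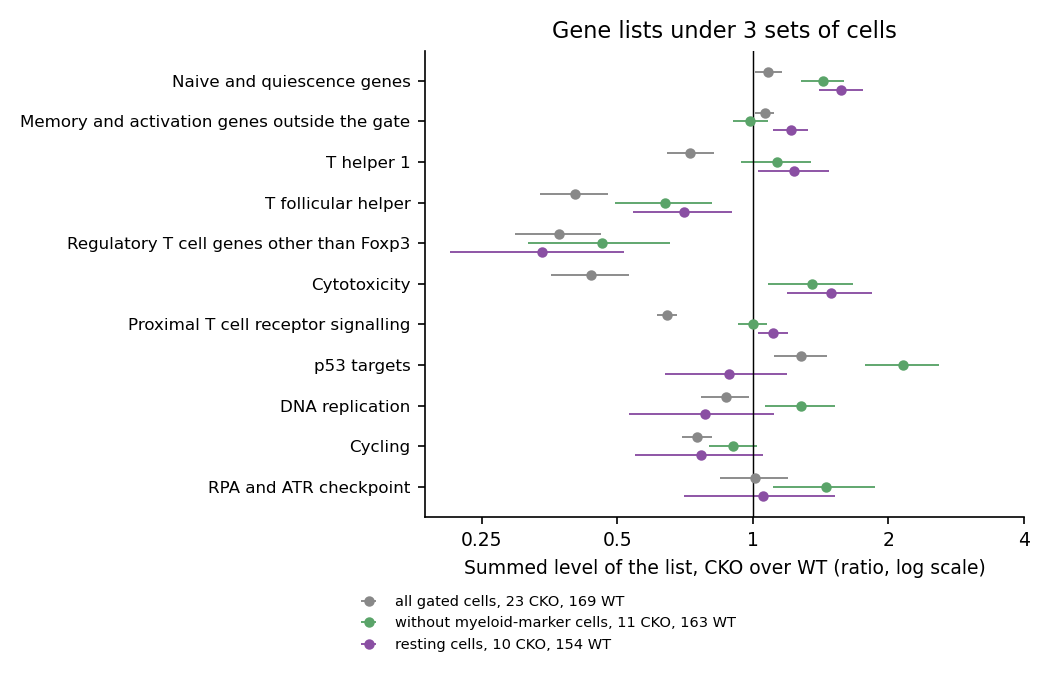
CKO over WT ratio of the summed level (x axis, log scale) for 11 gene lists (y axis) in all memory-gated cells, in those without myeloid markers and in resting ones. Points are ratios, whiskers exact 95% intervals of the counting error. Regulatory-type genes lie at 0.371 in all cells and 0.340 in resting cells, while the p53 list moves from 2.16 to 0.884 when the cycling cells leave.

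The single cycling CKO cell without myeloid markers stood apart in the p53 programme, which halts or kills cells with damaged DNA. It had 13996 UMIs, 18 of 22 cycling genes, and 79 UMIs of p53 targets, or 56.4 per 10000. Of these 13 were Cdkn1a, the cell cycle inhibitor p21, and 9 Phlda3, an Akt repressor. The 9 cycling WT cells had 2.19 to 7.06 per 10000 with a median of 5.02, and the 154 resting WT cells 0 to 22.2. The other 22 CKO memory-gated cells had 3.75 to 12.4. Among them was the other cycling CKO cell, which carried myeloid markers. It had 20 of 22 cycling genes, 4.92 per 10000 and no UMI of Cdkn1a or Phlda3. All Cdkn1a and Phlda3 UMIs of the 11 CKO cells without myeloid markers came from the cell with 79 p53-target UMIs. Its gate genes were 44 UMIs of S100a4 and 1 of S100a6. It is 1 cell of 1 library.

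**Figure D5:**
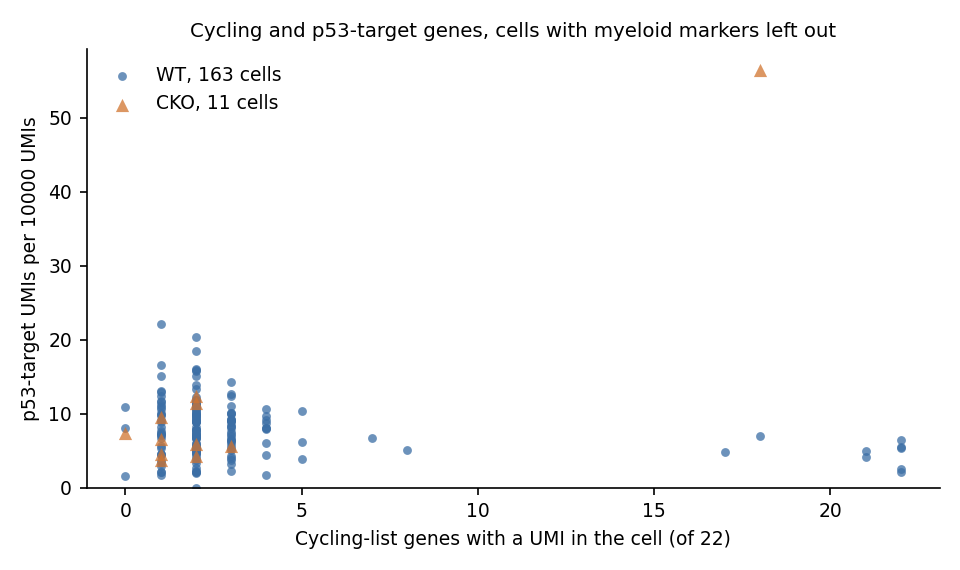
Number of 22 cycling genes with a UMI (x axis) against UMIs of p53-target genes per 10000 UMIs (y axis) in each memory-gated cell without myeloid markers, WT as circles and CKO as triangles. The single CKO cell at 18 cycling genes lies at 56.4 per 10000, and the 9 WT cells at 17 to 22 genes lie at 2.19 to 7.06.

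With that cell the p53 list summed to a CKO over WT ratio of 2.16 (1.77 to 2.60) without myeloid markers, and in resting cells to 0.884 (0.640 to 1.19). The RPA and ATR checkpoint list summed to 1.05 (0.703 to 1.52) in resting cells and the DNA repair list to 0.959 (0.680 to 1.32). Rpa1 stood at 16.02 CPM from 1 UMI in resting CKO cells and 39.9 CPM in WT (ratio 0.402, 0.00995 to 2.36), so no difference was detectable at this depth. Rpa2, the middle subunit, gave 1 UMI and Rpa3, the small subunit, 3 UMIs in resting CKO cells, against 28 and 35 in WT. In CD4 T cells with none of the 6 genes Rpa1 stood at 36.2 CPM in CKO and 45.2 CPM in WT.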

How the data were processed

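The authors deposited raw UMI counts for 1 WT and 1 CKO spleen library, as whole numbers that the file headers list by gene and barcode. Cell Ranger appears as version 6.0.2 in the matrix headers, and as 5.0.0, beside Seurat 4.0.3 and the mm10 genome, in the submitters' processing notes.

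Barcodes were kept at 200 to 6000 genes and below 10% mitochondrial UMIs. Cells were gated on raw UMIs, with no clustering. The cells and gene lists were chosen with earlier results of these data known, and leaving out cells with 10 or more myeloid-marker UMIs, or cycling cells, was chosen after seeing the data. Doublets were scored with Scrublet (scanpy 1.11.5, expected rate 0.8% per 1000 cells). Its own threshold marked 532 WT and 9 CKO cells, so scores past the expected-rate quantile were marked (1394 and 1293), and those cells were left out only as an alternative.

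UMIs were summed over cells and scaled to CPM. Shares carry exact Clopper-Pearson, CPM exact Poisson and ratios exact conditional binomial 95% intervals. A 0 was bounded with a floor of 3 counts over the set. With 1 library per genotype, called means past 2-fold among genes with a mean of at least 20 CPM. List medians use a pseudocount of 1 CPM. Named genes are the 12 higher and 12 lower whose interval bound nearest 1 lay farthest from it, with gate genes, sex-linked, ribosomal, mitochondrial and unnamed genes and the segments of antigen receptors left out. The rule was repeated on resting cells. List members and other genes outside it were picked with their values in view. Calculations were tested on simulated counts. Coordinates are from GENCODE on GRCm38. Calculations used scipy 1.17.1, numpy 2.4.6 and pandas 2.3.3 under Python 3.11.15, and plots matplotlib 3.10.9. No genome sequence was used here. Some genes are not reported here.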

Additional observations from a re-analysis of the deposited data

Results flagged for a closer look

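In 7 genes of the lists the difference between memory-gated cells and CD4 T cells with none of the 6 genes went opposite ways in the 2 libraries, with both intervals clear of 1. The difference between the libraries was not tested, since each genotype is 1 library. In WT the ratio was 5.61 for Tnfrsf4, 11.8 for Ikzf2, 1.21 for Cd5, 1.19 for Trac, 1.19 for Trbc2, 1.13 for Lat and 0.467 for Ifngr2. In CKO it was 0.143 for Tnfrsf4, 0.393 for Ikzf2, 0.770 for Cd5, 0.538 for Trac, 0.483 for Trbc2, 0.685 for Lat and 1.72 for Ifngr2. Without the cells with myeloid markers the CKO ratios were 0.507 for Tnfrsf4 from 1 UMI, 1.08 for Ikzf2, 1.36 for Cd5, 0.849 for Trac, 1.09 for Trbc2, 1.29 for Lat and 0.938 for Ifngr2, and each of these 7 intervals included 1.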

How the results depend on the processing

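No paired analysis was possible because each genotype is 1 library and no test was made. The CKO over WT ratio of the memory-gated share stayed below 1 under each alternative run, of retained cells and of the CD4 T gate. Of retained cells it was 0.215 with at least 1 of the 6 genes, 0.0771 with cells thinned to 1000 UMIs, 0.0679 without cells with myeloid markers, 0.0653 without these and cycling cells, and 0.0483 thinned to 2000 UMIs without myeloid markers, against 0.137. Of the CD4 T gate it was 0.920 (0.727 to 1.15) with at least 1 gene, 0.331 thinned to 1000 UMIs, 0.302 without myeloid markers, 0.290 without these and cycling cells, and 0.216 thinned to 2000 UMIs without myeloid markers, against 0.585. Of genes past 2-fold higher, 596, the count became 205 with a mean of 50 CPM, 2283 with no level filter, 1157 at 1.5-fold, 895 without myeloid-marker and cycling cells, and 11 with a mean of 200 CPM without myeloid markers. Genes past 2-fold lower, 339, became 97, 3589, 910, 659 and 13 under the same settings, 645 with at least 3 of 6 genes and 648 without myeloid-marker cells. The higher share of the calls was 63.7%, 38.9% with no level filter and 45.8% at 200 CPM without myeloid markers. The cytotoxicity list's median log2 ratio turned from -1.002 to 0.57 without myeloid-marker cells and 0.64 in resting cells, on 3 genes. The cause of these changes was not tested. The 11 CKO cells, with 76399 UMIs, limit all of it: 3 counts stand for 48.1 CPM over the 10 resting ones.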
